A study of Mus musculus with 2 samples.

Results

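The let-7 family of microRNA genes was described in the hindbrain of newborn mice. The 10 genes were chosen by name: Mirlet7a-1, Mirlet7a-2, Mirlet7b, Mirlet7c-1, Mirlet7c-2, Mirlet7d, Mirlet7f-2, Mirlet7g, Mirlet7i and Mir98. They are 10 of the 1973 microRNA genes with a row in the count tables, and all 10 had at least 10 counts. The study holds 2 microRNA-seq libraries in 1 group, from single hindbrains of B6NCrl mice at postnatal day 0, with no treatment named in the labels. The labels call the animals pup 1 and pup 3, give both the same donor identifier, and state that sex was not recorded. With 1 group there was no condition to compare, so the results are the level of each gene and its difference between the pups.

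A let-7 microRNA is cut from a stem-loop precursor (hairpin), and its 5′ arm is loaded into an Argonaute protein, where the seed (bases 2 to 8) pairs with target messages. Known let-7 targets include Lin28a, Hmga2 and Trim71, genes of early, proliferating cells, and let-7 rises as neural progenitors mature. LIN28 proteins in turn bind let-7 precursors and block their processing, in part through a GGAG motif at the 3′ side of the loop. The let-7 genes share 1 seed, and some of them yield the same mature microRNA.

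The mature sequences decide what these tables can count, so they are shown first, each 5′ to 3′ with the seed in capitals (RefSeq, GRCm38.p6). All 10 genes were matched by symbol, and the 5′ arm of Mirlet7a-2 was located by searching its hairpin. The 10 genes encode 8 different 5′ arms, and Mirlet7e adds a ninth, all 22 nt long with the same seed, GAGGUAG.
let-7g-5p (Mirlet7g): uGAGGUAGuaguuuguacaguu
let-7i-5p (Mirlet7i): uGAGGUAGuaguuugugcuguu
let-7b-5p (Mirlet7b): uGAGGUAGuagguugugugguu
let-7d-5p (Mirlet7d): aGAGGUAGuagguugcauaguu
miR-98-5p (Mir98): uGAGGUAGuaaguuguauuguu
let-7a-5p (Mirlet7a-1, Mirlet7a-2): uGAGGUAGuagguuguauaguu
let-7c-5p (Mirlet7c-1, Mirlet7c-2): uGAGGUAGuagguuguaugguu
let-7f-5p (Mirlet7f-1, Mirlet7f-2): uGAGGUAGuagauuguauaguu
let-7e-5p (Mirlet7e): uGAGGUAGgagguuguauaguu

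Against let-7a-5p, with positions counted from 1 at the 5′ end, let-7c-5p differed by A19G, let-7e-5p by U9G and let-7f-5p by G12A. let-7b-5p differed by A17G and A19G, let-7d-5p by U1A and U16C, let-7g-5p by G12U and U18C, and miR-98-5p by G11A and A19U. let-7i-5p was farthest from let-7a-5p, with G12U, A17G, U18C and A19U. Apart from the first base of let-7d-5p, every difference lies 3′ of the seed.

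Among 1005 RefSeq hairpins, the 5′ arms of Mirlet7g, Mirlet7i, Mirlet7b, Mirlet7d and Mir98 each occurred at 1 locus. The arms let-7a-5p, let-7c-5p and let-7f-5p each occurred at 2 loci, in the hairpins of Mirlet7a-1 and Mirlet7a-2, Mirlet7c-1 and Mirlet7c-2, and Mirlet7f-1 and Mirlet7f-2. Mirlet7a-1 and Mirlet7c-2 also share their entire 3′ arm, so neither gene has an annotated mature sequence of its own. The 3′ arms of Mirlet7a-2, Mirlet7c-1 and Mirlet7f-2 each occurred at 1 locus. This search covered annotated hairpins only, not the rest of the genome. The 3′ arms of the copied genes follow, with bases 2 to 8 in capitals.
let-7a-1-3p and let-7c-2-3p (Mirlet7a-1, Mirlet7c-2): cUAUACAAucuacugucuuucc
let-7a-2-3p (Mirlet7a-2): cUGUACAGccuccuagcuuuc
let-7c-1-3p (Mirlet7c-1): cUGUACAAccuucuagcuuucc
let-7f-2-3p (Mirlet7f-2): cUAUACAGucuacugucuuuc

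The counts are per precursor gene and appear to hold only reads placed at a single locus, with the arms not separated. Same-strand counts summed to 2459757 in pup 1 and 3012320 in pup 3. A further 40.2% and 42.0% of the reads of pups 1 and 3 were multimapping and went to no gene. CPM below are counts per 1000000 same-strand counts, and they are not divided by length because the 5′ arms have equal length. Values with ± are the mean and SD over the pups (n = 2), and p-values measure counting error only, since each pup is 1 library. Of 12 neural marker genes with a row, 8 reached 10 CPM in both pups, and the other 4 were Mir9-2 and the 3 Mir124a genes. Shared arms were searched for the let-7 genes only. Multimapping reads of marker genes are in no count, so low counts of these 4 do not show that their microRNAs were absent. Of the 6 Hox-encoded genes, which mark caudal tissue, 4 reached 10 CPM in both pups, led by Mir10a. These genes held 5.71% of counts in pup 1 and 3.43% in pup 3. Endothelial Mir126a held 3.42% and 3.69%, the liver gene Mir122 0.00419% and 0.00455%, and leukocyte Mir223 0.0169% and 0.0229%. Mir451a and Mir144 of red blood cells held 0.0151% and 0.0105% together, and striated muscle genes 0.00984% and 0.0125%, with 3 of 4 at no count. The 3 were Mir1a-1, Mir133a-1 and Mir133a-2, and whether their arms occur at several loci was not searched. Neither these 0 counts nor the low counts of Hox-encoded Mir196a-1 and Mir196a-2 show that the microRNAs were absent. The part of other cells in the differences between the pups was not tested.

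Mirlet7g and Mirlet7i carried most of the let-7 counts in both animals. Together they made up 75.9% of the family's counts in pup 1 and 76.5% in pup 3. The family's counts here and below are those of the 10 genes, without Mirlet7e, Mirlet7f-1 or multimapping reads. Shares of them are therefore not shares of let-7 in the tissue. The 10 genes together held 11.9% of same-strand counts in pup 1 and 14.1% in pup 3, and a mean of 5.48% when all reads were the denominator.

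Mirlet7g had 161108 counts in pup 1 and 237844 in pup 3, or 65498 and 78957 CPM. It ranked second among all genes in both pups and made up 55.5% ± 0.398 of the family's counts. It lies in an intron of Wdr82, a subunit gene of a histone methyltransferase complex, on chromosome 9 (106178840 to 106178927, plus strand, mm10). The 3 other genes closest to it in level over the 2 libraries were Mir487b, Mir126a and Mir335. The closest, Mir487b, had 52460 and 49764 CPM, so Mirlet7g was the higher in each pup.

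Mirlet7i had 60293 and 88034 counts, which are 24512 and 29225 CPM, or 20.7% ± 0.0130 of the family's counts. It is a gene with no other let-7 gene beside it, in an exon of the transcript D630033A02Rik on chromosome 10 (122985640 to 122985724, minus strand). Its level was below that of Mirlet7g by a similar ratio in each pup, 2.67 and 2.70.

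Mirlet7b and Mirlet7d came next. Mirlet7b had 11325 and 12144 CPM, and Mirlet7d had 9646 and 12452 CPM in pups 1 and 3. Their ranges overlap, and their order changed between the pups, so these neighbours could not be ranked.

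Mir98, whose 5′ arm carries the let-7 seed under another name, had 9011 and 14005 counts in the pups, which are 3663 and 4649 CPM. It lies in an intron of Huwe1, a ubiquitin ligase gene on chromosome X (151913214 to 151913321, plus strand). The 5 genes with a 5′ arm at 1 locus, of which Mir98 was the lowest, held 96.9% ± 0.310 of the family's counts.

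The 5 genes whose 5′ arm occurs at 2 loci all had lower counts than these. Mirlet7f-2 had 2286 and 2464 CPM, Mirlet7c-2 had 742 and 687 CPM, and Mirlet7c-1 had 434 and 448 CPM. The lowest were Mirlet7a-1, with 575 and 641 counts (234 and 213 CPM), and Mirlet7a-2, with 458 and 606 counts (186 and 201 CPM). The pups' ranges did not overlap between any neighbours in this order, although Mirlet7a-1 was above Mirlet7a-2 by only 1.26 times in pup 1 and 1.06 times in pup 3.

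The median over the genes with a 5′ arm at 1 locus was 11888 ± 797 CPM, and over those with a copied arm 441 ± 9.64 CPM. These medians are descriptions, since copies share sequence and are not independent, and reads that fit both copies are in neither count. Low values of the let-7a, let-7c and let-7f genes therefore give no level for let-7a, let-7c or let-7f in the tissue.

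**Figure D1:**
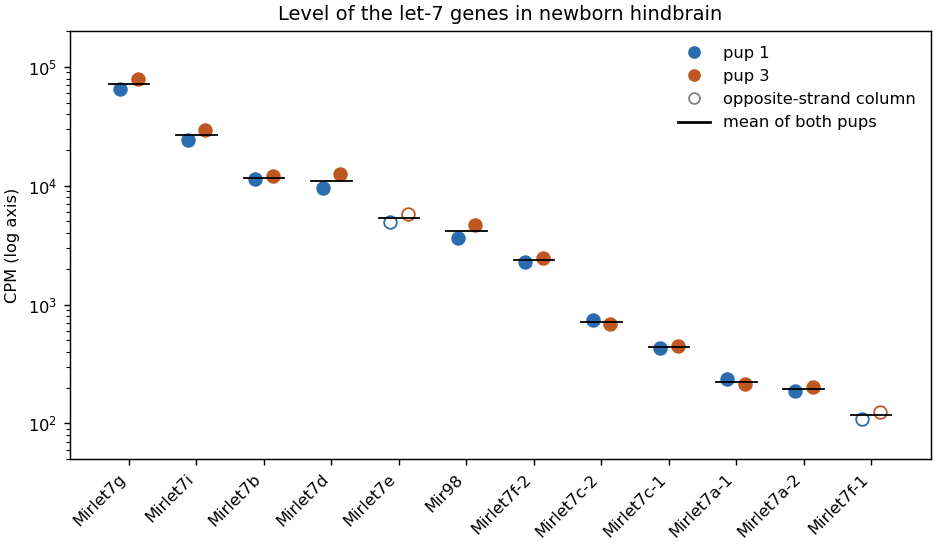
CPM (log axis) of each let-7 gene in pup 1 and pup 3, with the mean of both pups as a line. Open points are opposite-strand counts, used for the pair of genes with no row of their own. The values run from 72227 CPM for Mirlet7g down to 194 CPM for Mirlet7a-2 and 117 CPM for Mirlet7f-1, and points of the same gene lie close together. Values of genes with a copied 5′ arm give no level of the microRNA.

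Mirlet7e and Mirlet7f-1 have no row of their own, and their reads were read from the opposite-strand counts of the annotated genes Gm25927 and Gm24111 that lie across them. At Gm25927 these were 12155 counts in pup 1 and 17572 in pup 3, with 0 counts on the strand of Gm25927. On the CPM scale of the other genes, Mirlet7e thus had 4942 and 5833 CPM, between Mirlet7d and Mir98 in both pups. Its 5′ arm occurs at 1 locus, as do those of the other abundant members. At Gm24111 there were 269 and 374 opposite-strand counts, which gives Mirlet7f-1 109 and 124 CPM. That is the lowest CPM of the 12 genes, and its 5′ arm is the one shared with Mirlet7f-2.

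Copies of 1 mature sequence differ only in the bases around it. The 5′ arms are printed here with 2 flanking bases on each side, in the order of the pairs, with capitals for the flanking bases that differ between copies.
Mirlet7a-1: gAugagguaguagguuguauaguuuU
Mirlet7a-2: gUugagguaguagguuguauaguuuA
Mirlet7c-1: gUugagguaguagguuguaugguuuA
Mirlet7c-2: gGugagguaguagguuguaugguuuU
Mirlet7f-1: AGugagguaguagauuguauaguuGu
Mirlet7f-2: GAugagguaguagauuguauaguuUu

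A read of let-7f-5p that runs 1 templated base past the 3′ end occurs at a single hairpin, and for let-7a-5p and let-7c-5p it takes 2 bases. At the 5′ end 1 added base suffices in all 3 pairs. Mirlet7f-2 had 20.9 times the CPM of Mirlet7f-1 in pup 1 and 19.8 times in pup 3, although both have a 3′ arm found at no other hairpin. Mirlet7c-2 exceeded Mirlet7c-1 by 1.71 and 1.53 times, and Mirlet7a-1 exceeded Mirlet7a-2 by 1.26 and 1.06 times. In each of the 3 pairs, in both pups, the copy with more counts was the one whose first differing base 3′ of the arm is U, against A or G in the other. This was noticed after the values were seen, rests on 3 pairs and was not tested, and the tables do not give the ends of the reads. For let-7a in pup 3 the order rests on 641 against 606 counts. The copies also differ in bases 5′ of the arm, and Mirlet7a-1 and Mirlet7c-2 share their 3′ arm, so the pairs are not independent.

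Most let-7 genes sit beside other microRNA genes, and 3 clusters join a let-7 gene to Mir99 or Mir100 and Mir125 genes, whose microRNAs share no seed with let-7. On chromosome 9, Mir100 had 28271 and 26436 CPM, and Mirlet7a-2 (41536716 to 41536811, in an intron of 3110039I08Rik), 5211 bases downstream, had 186 and 201 CPM. Mir125b-1 followed, with 2005 and 2342 CPM. On chromosome 16, Mir99a had 174121 and 155604 CPM, more than any other gene in both pups. Mirlet7c-1 (77599657 to 77599750), which lies 656 bases from it in an intron of the same host Mir99ahg, had 434 and 448 CPM, and Mir125b-2 had 2509 and 2543 CPM. Mir99a thus had 401 times the CPM of Mirlet7c-1 in pup 1 and 347 times in pup 3. Reads that fit both copies of let-7a-5p or let-7c-5p are in no count. The CPM of Mirlet7a-2 and Mirlet7c-1 therefore give no level to set against their neighbours. Shared arms were not searched for the Mir99, Mir100 and Mir125 genes. Their counts, including those of Mir125b-1 and Mir125b-2, may also miss reads that fit several loci.

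The chromosome 17 cluster holds Mirlet7e, whose 5′ arm occurs at 1 locus. Mir99b had 15097 and 14054 CPM, Mirlet7e (17830352 to 17830444, in an intron of Spaca6) had 4942 and 5833 CPM by its opposite-strand counts, and Mir125a had 5388 and 4906 CPM. The ratio of Mir99b to Mirlet7e was 3.06 in pup 1 and 2.41 in pup 3, against ratios of over 100 in the clusters of Mirlet7a-2 and Mirlet7c-1. The part of the copied arms in this contrast was not tested.

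The remaining clusters hold let-7 genes alone. On chromosome 13, in exons of 6720427I07Rik, Mirlet7d (48536012 to 48536114, minus strand) had 41.3 and 58.5 times the CPM of Mirlet7a-1 (48538179 to 48538272). Mirlet7f-1 lies between them, 261 bases from Mirlet7a-1. On chromosome 15, in exons of Lncppara, Mirlet7b (85707319 to 85707403, plus strand) had 15.3 and 17.7 times the CPM of Mirlet7c-2 (85706603 to 85706697), 621 bases away. On chromosome X, Mir98 had 1.60 and 1.89 times the CPM of Mirlet7f-2 (151912346 to 151912428), which lies 785 bases away in the same intron-hosting gene, Huwe1. In each of the 3 clusters the gene with a 5′ arm at 1 locus had the higher CPM in both pups. Reads that fit both copies of an arm are in neither count, which lowers the counts of copied genes. These ratios therefore compare counts and give no ratio of microRNA levels.

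**Figure D2:**
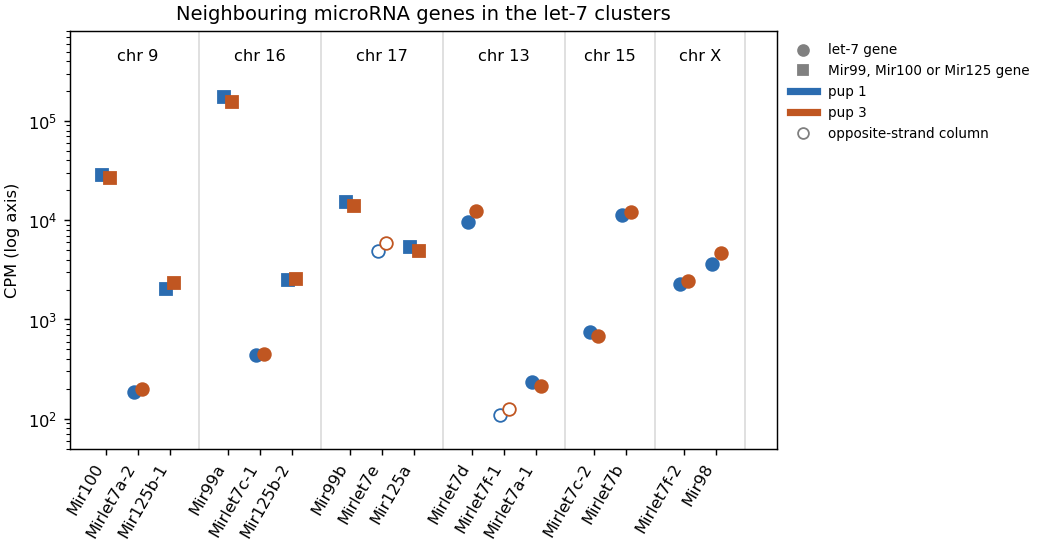
CPM (log axis) of neighbouring genes in 6 clusters, in order of coordinate within each chromosome, for pup 1 and pup 3. Circles are let-7 genes, squares are Mir99, Mir100 or Mir125 genes, and open circles are opposite-strand counts. Mirlet7a-2 and Mirlet7c-1 lie far under their neighbours, while Mirlet7e lies close to Mir125a. Reads that fit both copies of a shared 5′ arm are in no count, so points of copied let-7 genes give no level.

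Summed over the 10 genes, let-7 counts were higher in pup 3, with a log2 fold of 0.20 (95% counting interval 0.20 to 0.21), pup 3 over pup 1. In whole tissue, more cells of a type and more RNA per cell cannot be told apart. Genes were tested 1 by 1 with the exact binomial test (two-sided) on totals scaled by TMM, a trimmed mean of gene ratios. P-values were Benjamini-Hochberg adjusted over the 395 genes that reached 10 counts in a library. The test compares these libraries beyond counting error, with no replicate on either side. Of all 395 genes, 46.8% differed, 25.6% being higher and 21.3% lower in pup 3. Of the 10 let-7 genes 6 differed, 5 higher (Mirlet7d, Mir98, Mirlet7g, Mirlet7i and Mirlet7b) and 1 lower (Mirlet7c-2). With TMM factors from those 395 genes alone, an alternative chosen after seeing the data, 4 were higher and 3 lower. The median log2 fold was 0.06 over the members and 0.02 over all tested genes.

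Mirlet7d had the highest log2 fold, 0.32 (95% counting interval 0.29 to 0.34), followed by Mir98 at 0.29 (0.25 to 0.33). Mirlet7g (0.22, interval 0.21 to 0.23) and Mirlet7i (0.20, interval 0.19 to 0.22) had intervals that overlap. Mirlet7b was higher by 0.05 (0.03 to 0.07), the smallest of the called differences. Under the alternative TMM factors it was -0.027 and passed the test as lower, so its direction rests on the scaling.

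Mirlet7c-2 was lower, with a log2 fold of -0.16 (interval -0.26 to -0.07, exact binomial test, adjusted p = 0.0012). Mirlet7a-1, which shares its 3′ arm, had -0.19 and did not pass (exact binomial test, adjusted p = 0.051). It passed as lower with the either-strand column (-0.21) and with the alternative TMM factors (-0.26). Mirlet7f-2 (0.06), Mirlet7a-2 (0.06) and Mirlet7c-1 (-0.01) did not pass either. Summed over the 5 genes with a copied 5′ arm, the log2 fold was -0.01 (interval -0.04 to 0.03), and over the 5 others it was 0.21 (0.20 to 0.22). Their counting intervals do not overlap, but such intervals hold no variation between animals, and the difference between the sums was not tested. Gene by gene, the folds ran from -0.19 to 0.06 with a copied arm and from 0.05 to 0.32 in the others, so they overlapped.

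The folds lay within the general spread. Quartiles of the log2 fold over all 395 tested genes were -0.190 and 0.242. These include genes with few counts, whose folds carry more counting error than those of abundant let-7 genes. A comparison with genes of like counts was not made. Mirlet7d (0.32) and Mir98 (0.29) lay above the upper quartile, and the other members lay between the quartiles. The common biological coefficient of variation, 1 value estimated over 361 genes, was 16.6%, which gives log2 folds an SD of 0.34. All 10 let-7 genes lay within 1 such SD of 0, as did 65.8% of all tested genes. The highest fold among them, that of Mirlet7d, was 1.24.

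Neighbours within a cluster did not always differ the same way. In the chromosome 17 cluster Mirlet7e had a log2 fold of 0.19 (interval 0.15 to 0.22), while Mir99b had -0.16 (-0.18 to -0.14) and Mir125a -0.19 (-0.22 to -0.15). In the chromosome 13 cluster Mirlet7d had 0.32 and Mirlet7a-1 -0.19 (-0.35 to -0.02). Mir99a (-0.22) and Mir100 (-0.15) were lower in pup 3, whereas their let-7 neighbours Mirlet7c-1 (-0.01) and Mirlet7a-2 (0.06) did not pass. Mir125b-1, in the cluster of Mir100, was higher in pup 3 (0.17, interval 0.12 to 0.22). Mir125b-2, in the cluster of Mir99a, did not pass (-0.03). These are differences between a pair of libraries.

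**Figure D3:**
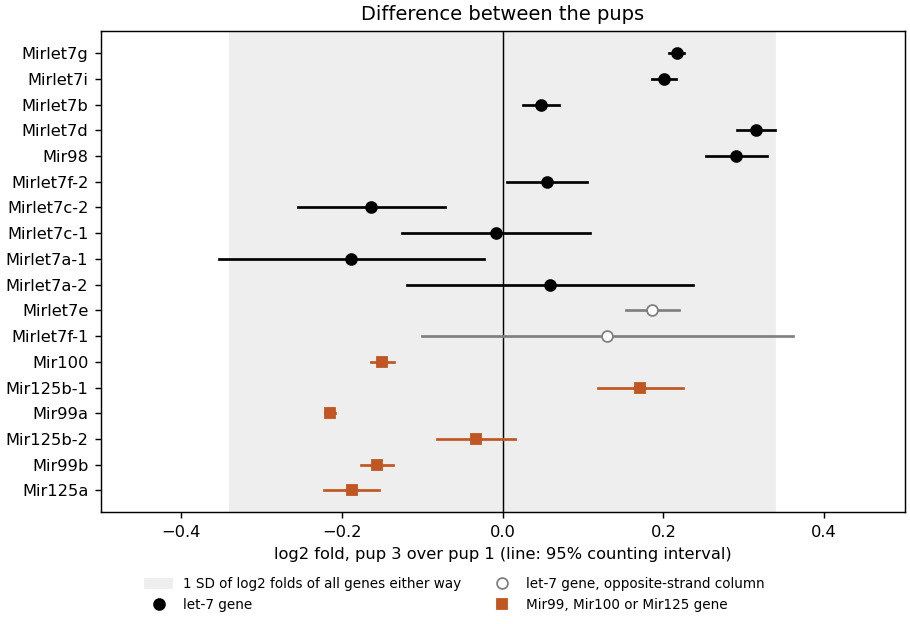
Log2 fold of pup 3 over pup 1 for let-7 genes (circles) and their Mir99, Mir100 and Mir125 neighbours (squares), with 95% counting intervals as lines. The shaded band is 1 SD (0.34) either way, from the common coefficient of variation. Every point lies inside the band, with Mirlet7d, Mir98, Mirlet7g and Mirlet7i on the side of pup 3.

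The loop sequences vary within the family in the motif that LIN28 is known to bind. GGAG was searched on the RNA strand between the annotated arms. It was found in 7 of the 10 genes and in Mirlet7e and Mirlet7f-1, so in 9 of 12. Among 633 other hairpins with both arms annotated, 6.95% held it there, and among the 50 of these with 23 to 36 nt between the arms, the range of the let-7 genes, 14.0% did. In 8 of the 9 it ended 4 bases before the 3′ arm, and in Mirlet7g 3 bases before it. The last 12 bases before the 3′ arm are shown for the most abundant genes and for those without the motif, with GGAG in capitals.
Mirlet7g: guacaGGAGaua
Mirlet7i: cuguGGAGauaa
Mirlet7d: acaaGGAGuuaa
Mirlet7b: cuccgaagauaa
Mir98: guaagaagauaa
Mirlet7c-2: gcucugcgguaa

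The genes without GGAG were Mirlet7b, Mir98 and Mirlet7c-2, with mean levels from 714 to 11735 CPM. The 7 members with it ran from 194 to 72227 CPM, and by opposite-strand counts Mirlet7e had 5387 CPM and Mirlet7f-1 117 CPM, so levels overlapped between the groups. Genes with a copied 5′ arm, whose counts give no level, set the lower end of both ranges. Among members with a 5′ arm at 1 locus, the 3 with GGAG had 11049 to 72227 CPM. The 2 without it, Mir98 and Mirlet7b, had 4156 and 11735 CPM. Mirlet7e, which has GGAG and a 5′ arm at 1 locus, had 5387 CPM by opposite-strand counts, between Mir98 and Mirlet7b. A relation of motif to level was not tested. A match is a description of these letters and does not show binding, and LIN28 was not measured.

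Outside the family, 2 further mature microRNAs in RefSeq carry the let-7 seed, miR-1961 and let-7k. They are shown with let-7j, which has the family name but a seed that differs by 1 base, again with bases 2 to 8 in capitals.
miR-1961 (Mir1961): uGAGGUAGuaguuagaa
let-7k (Mir7k): uGAGGUAGgagguugugug
let-7j (Mir7j): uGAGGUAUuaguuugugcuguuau

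Mir1961 had 0 counts in both pups, which allows up to 1.22 CPM in pup 1 and 0.996 CPM in pup 3, and Mir7k had 0 and 2 counts. Mir202, whose 3′ arm differs from the let-7 seed by 1 base, had 2 counts in each pup. Mir7j, named after its values were seen, had 452 and 548 counts. Over the length of let-7i-5p, let-7j differs from it by G8U alone, which puts it outside the seed family. Whether reads at Mir7j came from that locus was not tested.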

How the data were processed

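MicroRNA-seq was carried out on total RNA of 2 hindbrains. Per the file headers of the deposited listings, the authors aligned reads to mm10 with GENCODE M4. The aligner, counter and trimming remain not given in the sources used here. In each deposited table, the values are raw read counts in 3 columns (either strand, same strand, opposite strand), a layout inferred from the values. Of all reads, 13.7% and 12.4% were unmapped, and 3.79% and 3.63% fell on no gene. These summary rows, 4 per table, entered no test and no total except that of all reads. Of 1973 rows, 1894 matched GENCODE M21 (same assembly) by identifier.

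CPM, exact binomial tests with Benjamini-Hochberg adjustment (threshold 0.05) and Clopper-Pearson intervals were computed in scipy 1.17.1. Folds used a prior of 0.5 counts. TMM factors and dispersion came from edgeR 4.0.16 and size factors, as an alternative, from DESeq2 1.42.0. With 1 library per pup, no quasi-likelihood test could be run. The comparison was tested on simulated data with counting error alone, which cannot show how it behaves with variation between animals. Intervals and floors (3 counts) cover counting error only, and the labels name no molecular identifiers. Named genes were all members, Mirlet7e and Mirlet7f-1, the cluster partners, the gene with most counts, genes with the let-7 seed and the 3 genes nearest to Mirlet7g. Members and lists were chosen with earlier results of these data known.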

Additional observations from a re-analysis of the deposited data

Results flagged for a closer look

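Reads on the opposite strand of Gm25927 and Gm24111 lie outside the same-strand counts used for the 10 genes, and they exceeded the 3 counts that a count of 0 allows. Summed over both pups they numbered 29727 at Gm25927, where Mirlet7e lies, and 643 at Gm24111, where Mirlet7f-1 lies.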

How the results depend on the processing

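The family's share of counts, 11.9% and 14.1% in the 2 pups, averaged 5.48% with all reads as the denominator and 15.6% with Mir99a left out of the total, and 13.5% with Mirlet7e and Mirlet7f-1 added. The number of let-7 genes that differed was 6 or 7 under other scalings, filters and the either-strand column. It was 0 when a minimum fold just above the 1.24 of Mirlet7d was also required, against 81 of all 395 genes. That minimum was applied under the main scaling only. The log2 fold of Mirlet7d, 0.315 there, was higher with plain totals (0.368) and DESeq2 size factors (0.334). It was lower with the either-strand column (0.298) and the alternative TMM factors (0.241). Log2 folds changed sign for Mirlet7c-1 with plain totals (0.0445) and with DESeq2 size factors (0.0106). With TMM factors from the 395 tested genes alone, an alternative added after the values were seen, they did so for Mirlet7b (-0.0269), Mirlet7a-2 (-0.0165) and Mirlet7f-2 (-0.0195). That scaling moved all folds by -0.07. Mirlet7f-2 passed the test as higher with plain totals and with DESeq2 size factors. Mirlet7a-1 passed as lower with the either-strand column and with the added TMM factors. Taken as a mean in place of a median, the level of the genes with a 5′ arm at 1 locus was 25207 CPM and of those with a copied arm 789 CPM, and adding Mirlet7f-1, likewise a later choice, gave a median of 332 CPM. Leaving out either pup gave no test. No paired analysis was possible because there is only 1 group. Reads that fit several loci limit every value of the copied genes.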
